A study of Mus musculus with 4 samples.

Results

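The mitochondrial genome was examined in windows of 50 bp and on its 2 strands, in all 4 libraries of a comparison of 5-hydroxymethylcytosine (5hmC) between mouse embryonic stem cells (ESC) and neural progenitor cells (NPC) derived from them. Members were chosen by position alone: every deposited read position on chromosome M of build mm9, placed by the 5′ end of the read, in windows counted from the first base over 16300 bp. This gave 326 windows, of which the last 18 (positions 15401 to 16300) were taken as the control region and the other 308 as the rest. Of these windows 226 held a read in at least 1 library, and 100 held none. The ESC 5hmC library had 984 mitochondrial read positions of 7125863, the ESC input 4383 of 5067996, the NPC 5hmC library 597 of 1744174 and the NPC input 2597 of 6596405.

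All groups came from 46C, a mouse ESC line of strain 129/Ola in which green fluorescent protein (GFP) reports the neural gene Sox1, and the ESC medium held serum and the cytokine LIF, which keeps stem cells undifferentiated. For the NPC groups the cells were rosette-like cells positive for Sox1-GFP, at day 9 of differentiation in a monolayer in N2B27 medium. DNA of the 2 cell types carried different barcodes and was precipitated with a 5hmC antibody in 1 tube, after 10% had been taken off as input. Each group was 1 library, without replicates, so that the values below compare libraries. Ranges in parentheses are 95% intervals for counting error alone, and they treat each read as independent although some may be PCR copies.

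Mitochondrial DNA is a small circular genome with many copies per cell and is replicated by its own machinery. Its strands, called heavy and light, differ in base composition, and nearly all of the circle codes for protein, ribosomal RNA or transfer RNA. The main noncoding stretch, the control region, holds the promoters and the origin of heavy strand replication and often carries an additional short DNA strand that forms the displacement loop (D-loop). 5hmC is made from 5-methylcytosine by TET enzymes in the nucleus, and whether mitochondrial DNA carries these bases at all has long been debated. In the RefSeq gene table of assembly GRCm38.p6 the mitochondrial genome has 37 genes (13 protein-coding, 22 for transfer RNA and 2 for ribosomal RNA), the first of which is TrnF and the last TrnP, both transfer RNA genes, so that the control region joins these ends. That table is of another build than the reads, and windows are therefore given by position, without gene names.

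Total depth was 7291825 reads in the ESC 5hmC library, 5106976 in the ESC input, 1776959 in the NPC 5hmC library and 6637930 in the NPC input. On the mitochondrial genome these left 1146 and 5247 reads in ESC and 676 and 2891 in NPC. Most mitochondrial positions held a single read (82.8% to 90.2% of positions per library), and no position held more than 5. Whether the first base of a position is numbered 0 or 1 in the files is not stated, which leaves a doubt of 1 base in every position given.

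Relative to the nuclear genome, 5hmC per input in mitochondrial DNA was higher in NPC than in ESC. The mitochondrial level itself was alike in both, whereas the nuclear level was lower in NPC. Levels are given per input read of the same cell type, and their NPC/ESC ratio rests on both barcodes having been sequenced from the same pools. In ESC 1146 5hmC reads stood against 5247 input reads, which is 0.218 5hmC reads per input read (0.205 to 0.233). In NPC 676 stood against 2891, which is 0.234 (0.215 to 0.254). The NPC/ESC ratio was 1.07 (0.962 to 1.19) over reads and 1.02 (0.913 to 1.15) when each position and strand was counted once, so that both intervals held 1. Over chromosomes 1 to 19 and X the level was 1.43 in ESC and 0.268 in NPC, a ratio of 0.187. Relative to that nuclear ratio, the mitochondrial ratio was 5.72-fold higher (5.14 to 6.36), a value that does not depend on the depth of any library.

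The position of mitochondrial DNA among the chromosomes therefore differed between the cell types. In ESC its level was 6.55-fold below the nuclear level (6.14 to 6.99), the lowest of all 22 chromosomes. In NPC it was 1.15-fold below (1.05 to 1.25), although on the plus strand alone it was 0.982 of the nuclear level with an interval on both sides of 1 (0.868 to 1.11), and chromosomes Y (0.160 5hmC reads per input read) and X (0.223) lay lower. Chromosome Y had the second highest NPC/ESC ratio, 0.484, below the lower limit of the mitochondrial interval.

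Nuclear windows of 1 Mb, 2571 of them, gave the spread of these measures in the same libraries. The NPC/ESC ratio reached the mitochondrial value in 1 window (0.0389%), on chromosome 12 from 23000001 to 24000000, where the 5hmC and input reads were only 16 and 26 in ESC and 16 and 22 in NPC (ratio 1.18, 0.439 to 3.18). The ESC level was at or below the mitochondrial one in 3 windows (0.117%), on chromosomes 4 (from 113000001), 6 (from 130000001) and X (from 121000001). Those 3 windows had NPC/ESC ratios of 0.628, 0.607 and 0.527, and their pooled level in NPC was 0.123 (0.107 to 0.139). The mitochondrial level in NPC was 1.91 times that value (1.63 to 2.23). In NPC 1120 windows (43.6%) were at or below the mitochondrial level, which thus lay well inside the nuclear range there. In nuclear windows of the length of the mitochondrial genome, where few reads fall, 8856 of 146352 (6.05%) had a ratio at or above the mitochondrial one, 7.01% had an ESC level at or below it and 50% an NPC level at or below it. Those windows held a median of 32 input reads in ESC and 43 in NPC, so that counting error widens their spread. No precipitation without antibody was analysed here, and how much of the mitochondrial 5hmC reads is unspecific carry-over was not tested.

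**Figure D1:**
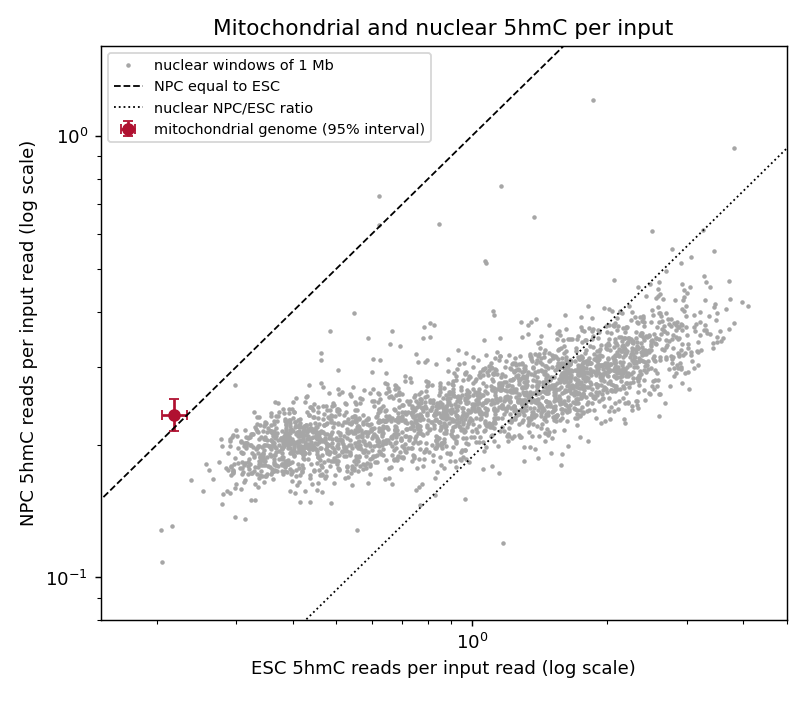
5hmC reads per input read in NPC (y axis, log scale) against ESC (x axis, log scale), for 2571 nuclear windows of 1 Mb (grey points) and the mitochondrial genome (red point, bars are 95% counting intervals). The mitochondrial genome, at 0.218 in ESC and 0.234 in NPC, lies close to the line of equal levels and left of nearly all nuclear windows.

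The share of mitochondrial reads moved in opposite directions in input and 5hmC libraries. Per 100000 nuclear reads, the ESC input held 102.9 mitochondrial reads (100.2 to 105.8) and the NPC input 43.6 (42.0 to 45.2). The ESC input share was thus 2.36-fold higher than that of NPC (2.26 to 2.47). In the 5hmC libraries the order was the other way, with 15.7 in ESC (14.8 to 16.7) and 38.1 in NPC (35.3 to 41.1), a 2.42-fold higher share in NPC (2.20 to 2.67). These are shares of sequenced reads: fewer mitochondrial genomes per nucleus and a lower recovery of mitochondrial DNA at extraction cannot be told apart. The 5hmC share also moves with the nuclear 5hmC level, which is its denominator.

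Coverage was not even, and a long stretch was empty. No read of any library started between positions 6443 and 10976, a gap of 4533 bp that contains 90 of the 100 empty windows (6451 to 10950). The other 10 lay at 1701 to 1750, 5451 to 5750, 15751 to 15850 and 15901 to 15950. These parts of the genome give no information on 5hmC. How reads that match more than 1 place were handled is not given in the sources used here, and whether nuclear copies of mitochondrial sequence bear on the gap was not tested. The plot of reads along the genome by strand shows it as the blank centre.

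**Figure D2:**
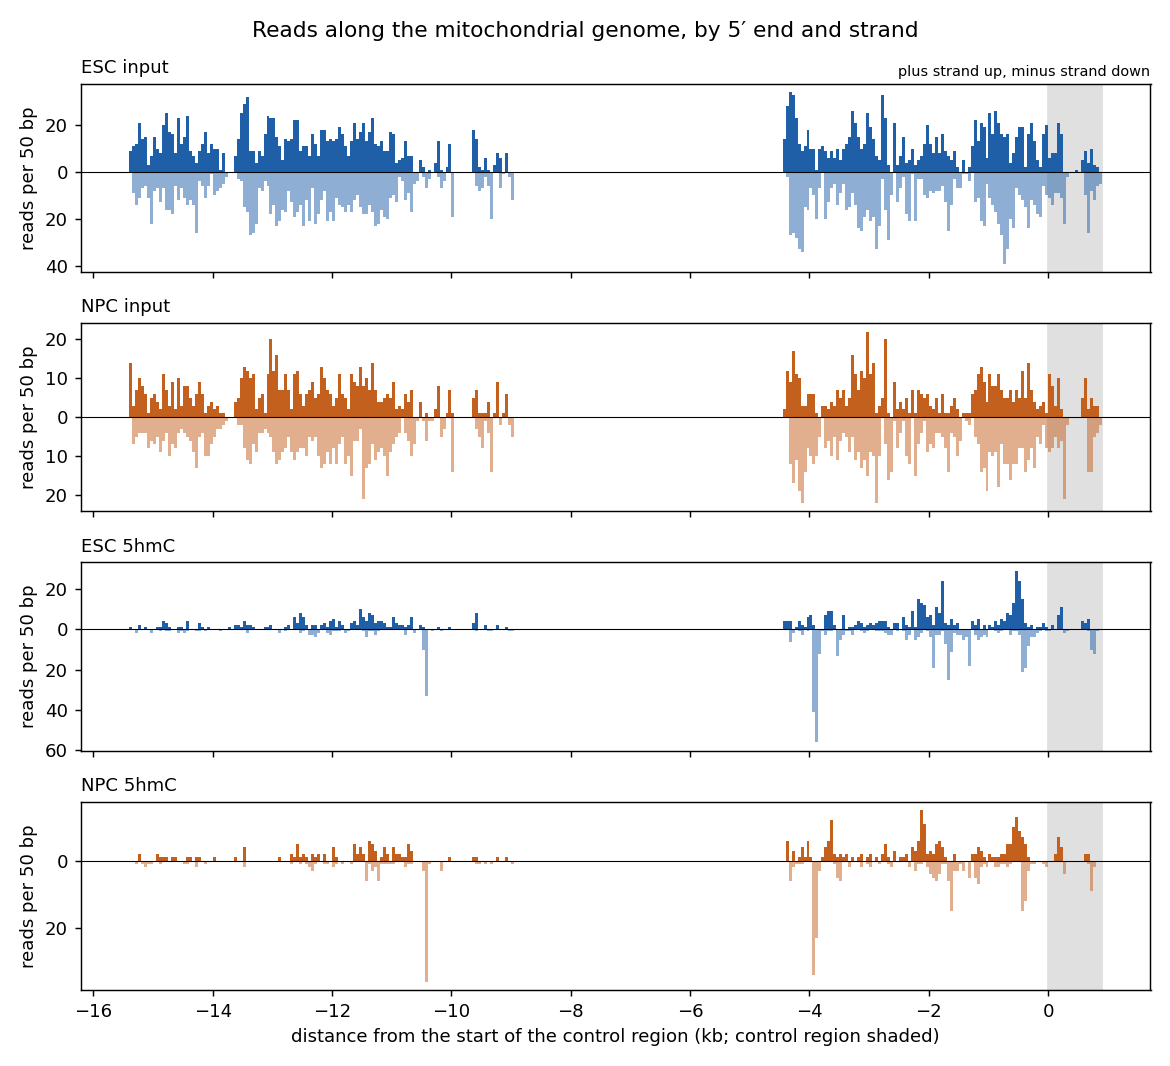
Reads per 50 bp window (y axis, plus strand up, minus strand down, scaled for each library) along the mitochondrial genome (x axis, kb from the start of the control region, which is shaded) in the 4 libraries. Input reads cover both flanks of the empty 4533 bp, whereas 5hmC reads stand in narrow peaks at the same places in ESC and NPC.

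Along the covered part, 5hmC per input was uneven, and the same stretches were high in both cell types. Levels were compared in 33 stretches of 500 bp (the last of 300 bp), of which 25 in ESC and 24 in NPC had the required 10 input reads. In ESC 4 stretches (16%) were at least 2-fold above the mitochondrial mean and 8 (32%) at least 2-fold below it, after adding a pseudocount of 0.5 reads. In NPC the counts were 4 (16.7%) and 8 (33.3%). The 4 above were the same in both, at 4501, 11501, 13001 and 13501, given by their first positions. Nuclear windows of 100 kb, taken for scale, were 2-fold above the nuclear mean in 5.85% of cases in ESC and 1.25% in NPC, and 2-fold below it in 43.9% and 4.07%. Those windows are longer and, beside ESC input, deeper: their medians were 194 input and 159 5hmC reads in ESC and 258 and 58 in NPC, against 212 and 34 and 119.5 and 17.5 in the mitochondrial stretches. Counting error is thus larger in the stretches, and their shares cannot be set directly against the nuclear ones.

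The intervals of 5 stretches lay above the mitochondrial mean in both cell types. Stretch 4501 to 5000 had 64 5hmC reads for 107 input reads in ESC (0.598, 0.432 to 0.823) and 55 for 66 in NPC (0.833, 0.572 to 1.21). Stretch 11501 to 12000 had 129 for 177 in ESC (0.729) and 67 for 100 in NPC (0.670). These stretches lie on either side of the empty part. Stretch 13001 to 13500 had 111 for 191 in ESC (0.581) and 66 for 116 in NPC (0.569). Stretch 13501 to 14000, next to it, had 121 for 168 in ESC (0.720) and 61 for 85 in NPC (0.718). Stretch 14501 to 15000 had the most reads, 144 for 370 in ESC (0.389) and 79 for 185 in NPC (0.427). All 5 ended before the control region.

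Together these 5 stretches held 49.7% of mitochondrial 5hmC reads and 19.3% of input reads in ESC, and 48.5% and 19.1% in NPC. Their pooled level was 0.562 in ESC and 0.594 in NPC, with an NPC/ESC ratio of 1.06 (0.888 to 1.26). Set against the nuclear means, they stood at 0.393 of the nuclear level in ESC and at 2.22 times it in NPC. The stretches were picked for their level in both cell types, so that the level and its NPC/ESC ratio are a description.

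At the other end, 10 stretches had intervals below the mitochondrial mean in both cell types. They were all 8 stretches from position 1 to 4000, together with 6001 to 6500 and 12001 to 12500. Their levels ran from 0.0238 to 0.146 in ESC and from 0 to 0.141 in NPC. The lowest was 2001 to 2500, with 7 5hmC reads for 294 input reads in ESC and 0 for 163 in NPC, for which the interval reaches up to 0.0229. Pooled, the 10 stretches stood at 0.0873 in ESC and 0.0838 in NPC, a ratio of 0.960 (0.750 to 1.22). Enriched and depleted stretches alike were kept only where both cell types lay on the same side of the mean. This choice holds their pooled NPC/ESC ratios near 1. No stretch was above the mean in one cell type and below it in the other by its interval.

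**Figure D3:**
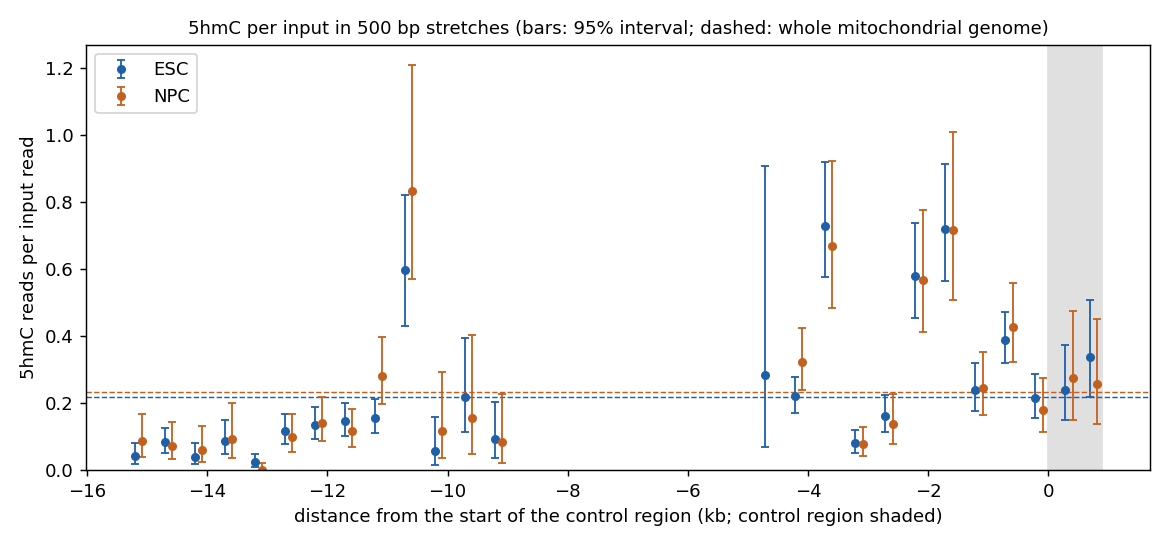
5hmC reads per input read (y axis) in stretches of 500 bp with at least 10 input reads along the mitochondrial genome (x axis, kb from the start of the control region, shaded), for ESC (blue) and NPC (orange). Bars are 95% counting intervals and dashed lines the mitochondrial means of 0.218 and 0.234; the high and low stretches coincide in the 2 cell types.

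The profile was compared between cell types as a description, since the windows of a library share its depth and fragments spill over between neighbours. Over the 24 stretches measured in both, 5hmC per input in ESC and NPC had a Pearson r of 0.889 and a Spearman rho of 0.935. Over 151 windows of 50 bp, where counts are small, r was 0.680. Input read numbers were also alike over the stretches (r = 0.980), whereas input and 5hmC per input were only weakly related within ESC (-0.15) and NPC (-0.17). Of the 5hmC read positions, 118 were shared by both 5hmC libraries, which is 12.0% of the ESC and 19.8% of the NPC positions. The inputs shared 756, or 17.2% of the ESC and 29.1% of the NPC positions. The ESC 5hmC library shared 26.1% of its positions with the ESC input and 16.5% with the NPC input. For the NPC 5hmC library these values were 27.8% and 19.8%. These percentages depend on the number of positions in the other library, and the inputs hold more. Taken as a share of the other library, the order was reversed. The ESC 5hmC positions covered 19.8% of the NPC 5hmC positions, against 5.86% of the ESC input and 6.24% of the NPC input positions. The NPC 5hmC positions covered 12.0% of the ESC 5hmC positions, against 3.79% of the ESC input and 4.54% of the NPC input positions.

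Few stretches differed from the others in the NPC/ESC ratio. The NPC/ESC ratio was 2-fold above the mitochondrial ratio in 0 of 24 stretches (0%) and 2-fold below it in 1 (4.17%), namely 2001 to 2500, which had no NPC 5hmC read. Among nuclear windows of 100 kb, 34.4% were 2-fold above the nuclear ratio and 3.59% below it. In 22 of 24 stretches the interval of the ratio contained 1. The exceptions were 4001 to 4500, with 46 5hmC reads for 296 input reads in ESC and 44 for 156 in NPC (ratio 1.82, 1.12 to 2.94, an interval that also excluded the mitochondrial ratio), and 11001 to 11500 (1.46, with a lower limit just above 1 and an upper limit of 2.13). The interval lay above the nuclear ratio in 21 of 24 stretches, all but 2001 to 2500, 5501 to 6000 and 6001 to 6500.

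At the scale of single 50 bp windows the counts were small, with a median of 26 input and 3 5hmC reads in the 190 tested windows of ESC and of 16 and 2 in the 154 of NPC. In ESC 27 windows (14.2%) were 2-fold above the mitochondrial mean and 77 (40.5%) 2-fold below it, and the intervals of 23 and 28 excluded the mean. In NPC 22 (14.3%) were above and 59 (38.3%) below, with 11 and 15 intervals that excluded it. Of the windows tested in both, 13 were above in both cell types, which is 72.2% of the 18 in ESC and 61.9% of the 21 in NPC. A further 36 were below in both, 57.1% of the 63 in ESC and 62.1% of the 58 in NPC. For the NPC/ESC ratio, 25 of 151 windows (16.6%) were 2-fold above and 36 (23.8%) 2-fold below the mitochondrial ratio, but no interval excluded that ratio and all 151 contained 1.

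Among windows with at least 10 input reads in each cell type, those with the highest level were largely the same in both. Window 11501 to 11550 led in ESC, with 56 5hmC reads for 21 input reads, and had 23 for 11 in NPC. Its neighbour 11451 to 11500 had 43 for 20 in ESC and 34 for 18 in NPC. Window 13251 to 13300 had 15 for 10 in ESC and 16 for 10 in NPC. These 3 windows had more 5hmC than input reads in both cell types. Window 15001 to 15050, just before the control region, had 22 for 17 in ESC and 17 for 19 in NPC. The fifth window was 14851 to 14900 in ESC (30 for 22, and 13 for 19 in NPC) and 14951 to 15000 in NPC (22 for 20, and 36 for 31 in ESC). Both belong to the stretch with the most reads. Below the input minimum, window 4951 to 5000 had a higher level than all of these, with 33 for 7 in ESC and 36 for 7 in NPC. Among the lowest were 2401 to 2450 and 2451 to 2500, with no 5hmC read in either cell type for 37 and 38 input reads in ESC and 21 and 28 in NPC.

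The strands differed over the whole mitochondrial genome. In ESC 614 plus-strand 5hmC reads stood against 2539 plus-strand input reads (0.242), and 532 minus-strand reads against 2708 (0.196). In NPC the plus strand had 334 for 1270 (0.263) and the minus strand 342 for 1621 (0.211). In ESC the level on the plus strand was therefore 1.23 times that on the minus strand (1.08 to 1.40), and the NPC value was 1.25 (1.05 to 1.48). Counted by positions, the ratios were 1.34 and 1.29, and over the nuclear genome the ratio was 1.001 in ESC and 1.0002 in NPC. Of the 1 Mb nuclear windows, 67 of 2571 (2.61%) reached the mitochondrial ratio in ESC and 96 (3.73%) in NPC. Among nuclear windows as short as the mitochondrial genome, which held a median of 25 ESC and 9 NPC 5hmC reads, 36.7% and 38.7% did. Strand here means the reference strand a read matched, and whether that is the strand bound by the antibody is not given in the sources used here.

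The NPC/ESC ratio did not depend on the strand within counting error. It was 1.09 on the plus strand (0.933 to 1.27) and 1.07 on the minus strand (0.922 to 1.25). The balance of input reads itself differed between the cell types: 48.4% of ESC and 43.9% of NPC input reads were on the plus strand. The plus/minus ratio of input reads in NPC was 0.836 of that in ESC (0.762 to 0.916), a value at or below which lay 23 of the 1 Mb nuclear windows (0.895%). In the 5hmC libraries the same ratio was 0.846 (0.696 to 1.03), an interval that contained 1. Counted by positions it was 0.798 (0.647 to 0.984), an interval that excluded 1.

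Locally the strands differed far more than they did overall. Of the 24 stretches tested, the plus/minus ratio of 5hmC per input was at least 2-fold above 1 in 9 (37.5%) in ESC and in 7 (29.2%) in NPC. It was 2-fold below 1 in 4 (16.7%) in ESC, at 4501, 11501, 14001 and 15001, and in 3 (12.5%) in NPC, at 4501, 5001 and 15001, each given by its first position. Among nuclear windows of 100 kb the shares were 1.59% and 3.01% above and 1.75% and 2.94% below. Those windows are far longer and hold more 5hmC reads, so that these shares cannot be set directly against those of the stretches. A read starts at opposite ends of a fragment on the 2 strands, so that a peak places its plus and minus reads in different neighbouring windows. How much of the local strand ratios this offset makes up was not tested. With reads placed by midpoint, the Pearson r of plus and minus 5hmC per input over the 24 stretches was 0.533 in ESC and 0.559 in NPC, against 0.594 and 0.716 by 5′ end. Over windows of 100 bp the change went the other way, with 0.361 and 0.293 by midpoint against 0.265 and 0.270 by 5′ end. In single windows of 50 bp, 39 of 83 (47%) were 2-fold above 1 and 17 (20.5%) below it in ESC, against 1 (5.26%) and 4 (21.1%) of the 19 tested in NPC, but only 6 and 2 intervals in ESC and 0 in NPC excluded 1. The windows in NPC were 2751 to 2800 above, and 3701 to 3750, 3951 to 4000, 11151 to 11200 and 15051 to 15100 below.

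The plus strand was higher by its interval in 6 stretches in both cell types. They were 2501 to 3000 (ratio 5.66 in ESC and 5.30 in NPC), 4001 to 4500 (8.40 and 2.35), 12501 to 13000 (2.50 and 6.18), 13001 to 13500 (1.93 and 4.53), 14501 to 15000 (4.46 and 3.68) and 15501 to 16000 (7.62 and 6.83). In 14501 to 15000 the ESC 5hmC library had 111 plus and 33 minus reads for 159 and 211 input reads, and the NPC library 55 and 24 for 71 and 114. The minus strand was higher in both in 1 stretch, 4501 to 5000 (0.459, 0.216 to 0.952 in ESC, and 0.403, 0.164 to 0.963 in NPC). That stretch directly follows 4001 to 4500. In ESC, 15001 to 15500, which follows 14501 to 15000, was also higher on the minus strand (0.459, 0.220 to 0.916). In NPC its interval contained 1 (0.432, 0.134 to 1.21). The other listed stretches had no such neighbour after them. How much of this pattern the offset between the strands makes up was not tested. Over the 24 stretches the strand ratios of ESC and NPC had a Pearson r of 0.523 and a Spearman rho of 0.617, again as a description.

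**Figure D4:**
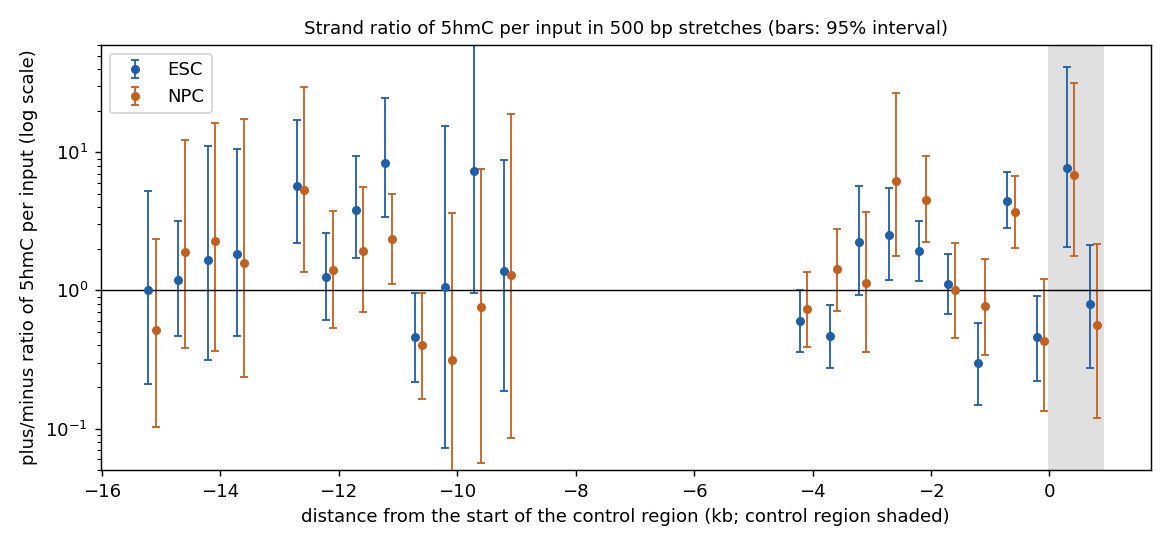
Plus/minus ratio of 5hmC per input (y axis, log scale) in stretches of 500 bp along the mitochondrial genome (x axis, kb from the start of the control region, shaded), for ESC (blue) and NPC (orange), with 95% counting intervals as bars and the line at equal strands. Stretches above the line in both cell types include 15501 to 16000 (7.62 and 6.83), within the control region. The offset between the plus and minus reads of a peak was not taken out of these ratios.

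The minus strand had a pair of dense clusters, which were chosen after their values were seen, as windows with at least 30 minus-strand reads in the ESC 5hmC library. The first was 4951 to 5000, with 33 minus-strand 5hmC reads for 7 input reads in ESC and 36 for 6 in NPC, and no plus-strand 5hmC read in either. The second was 11451 to 11550, with 97 for 30 in ESC and 57 for 22 in NPC, beside 2 plus-strand 5hmC reads in ESC and 0 in NPC. Together they covered 150 bp and held 24.4% of all minus-strand mitochondrial 5hmC reads in ESC and 27.2% in NPC, but 1.37% and 1.73% of the minus-strand input reads.

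The reads of these clusters were spread over many positions, with more reads per position than on the whole minus strand. In ESC the 130 reads lay on 77 positions and in NPC the 93 reads on 60. All minus-strand mitochondrial 5hmC reads, 532 in ESC and 342 in NPC, lay on 431 and 295 positions. Whether PCR copies add to the clusters was not tested. The positions with the most 5hmC reads lay in the clusters: 4954 and 11503 on the minus strand in ESC and 4967 on the minus strand in NPC, with 5 reads each. In the inputs these 3 positions held 0 or 1 read. Without the clusters, the mitochondrial plus/minus ratio was 1.61 in place of 1.23 in ESC (1.40 to 1.85), and for NPC it was 1.69 in place of 1.25 (1.41 to 2.04). Leaving out clusters chosen on the minus strand raises this ratio by construction. Without the 5 richest stretches it was 1.33 in ESC (1.12 to 1.597), and for NPC it was 1.16 (0.921 to 1.46), an interval that contained 1.

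The control region did not differ from the rest beyond counting error. In ESC it had 60 5hmC reads for 238 input reads, a level of 0.252 (0.187 to 0.336), against 0.217 in the rest (0.203 to 0.232). The control/rest ratio was 1.16 (0.854 to 1.56). In NPC it had 33 for 160, a level of 0.206 (0.137 to 0.302), against 0.235 (0.216 to 0.257), with a ratio of 0.876 (0.577 to 1.30). The NPC/ESC ratio was 0.818 (0.494 to 1.34) in the control region and 1.09 (0.973 to 1.21) in the rest. With these counts, any ratio within those intervals remains possible. When the 5 richest stretches were left out of the rest, the control/rest ratio was 1.95 for ESC (1.42 to 2.64), and for NPC it was 1.43 (0.932 to 2.13). Leaving out stretches chosen for a high level raises this ratio by construction, and the NPC interval contained 1. Leaving out 350 bp at both ends of the linear map, where extended reads run past the end, gave an ESC ratio of 0.784 (0.483 to 1.22), on the other side of 1.

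Within the control region the reads were split by strand and by place. On the plus strand the level was 0.344 in ESC (32 for 93 input reads) and 0.274 in NPC (17 for 62). On the minus strand it was 0.193 (28 for 145) and 0.163 (16 for 98). The plus/minus ratios, 1.78 in ESC (0.968 to 3.29) and 1.68 in NPC (0.736 to 3.83), had intervals that contained 1. In the part from 15501 to 16000, however, the plus strand had 22 5hmC reads for 51 input reads and the minus strand 3 for 53 in ESC (ratio 7.62, 2.07 to 41.6). In NPC the values were 13 for 20 and 4 for 42 (6.83, 1.77 to 31.6). In the last 300 bp the ratios were 0.798 and 0.565, with intervals on both sides of 1. Most of the plus reads from 15501 to 16000 lay in the adjacent windows 15551 to 15600 (7 in ESC and 7 in NPC) and 15601 to 15650 (11 and 4). Neither window had a minus-strand 5hmC read in either cell type. The last 300 bp held 24 of the 28 minus-strand 5hmC reads of the control region in ESC and 12 of the 16 in NPC. How much of these local ratios comes from the offset between the plus and minus reads of a peak was not tested.

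Input coverage of the control region was not the same in the cell types. In ESC the control region had 26.4 input reads per 100 bp and the rest 32.5, a ratio of 0.813 (0.711 to 0.926). In NPC the densities were 17.8 and 17.7, a ratio of 1.002 (0.849 to 1.18). The rest includes the empty windows. Against the 10550 bp of the rest in windows with a read, the ratio was 0.557 for ESC (0.487 to 0.634) and 0.687 for NPC (0.582 to 0.806). Empty windows were left out of the rest alone. The control region kept its own (15751 to 15850 and 15901 to 15950), which lowers these ratios and the next ones by strand. By strand, and against those covered windows, the ESC ratio was 0.446 on the plus strand (0.358 to 0.548) and 0.663 on the minus strand (0.557 to 0.784). The NPC ratios were 0.602 (0.458 to 0.777) and 0.754 (0.609 to 0.926). Against the whole rest, the ESC ratio was 0.651 on the plus strand (0.523 to 0.800) and 0.968 on the minus strand (0.813 to 1.14), and with a control region of 1000 bp it was 0.895 (0.792 to 1.01).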

How the data were processed

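Denatured, sonicated DNA (fragments under 500 bp) of ESC and NPC was sequenced after 5hmC immunoprecipitation and as input. The authors aligned reads with Bowtie 0.12.7 to mm9, per the submitters' processing notes. The deposited files hold 1 line per read position and strand, extended to 350 bp, with a whole-number count taken here as the raw reads at that position. These deposited counts show no scaling to depth or input. The handling of reads with several matches is not given in the sources used here. Reads were summed by 5′ end (start on the plus strand, end on the minus strand) in Python (version 3.11.15) using pandas 2.3.3, scipy 1.17.1 and numpy 2.4.6, and plotted with matplotlib 3.10.9. The level is 5hmC reads per input read. It moves with the sequencing depth of both pools, which cancels in ratios between regions or strands. It cancels in the NPC/ESC ratio only because both barcodes shared each pool, and if each pool was sequenced as a whole, which the labels do not state. The ratio relative to the nuclear one does not need this. The nuclear level is that of chromosomes 1 to 19 and X.

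Windows needed 10 input reads, and a 2-fold difference after a pseudocount of 0.5 was counted, a rule of size and not a test. With 1 library per group no p-value was computed. Intervals are exact (Clopper-Pearson for 2 counts, conditional for odds ratios), with a log-normal form where every count passed 2000 and a fixed nuclear ratio for comparisons with the nuclear genome. They are not adjusted for the number of windows. Named windows are the 5 with the highest and lowest level and ratio that pass the input minimum, the positions with the most reads, and the ends of the map. The windows of 15401 to 16300 as control region, the members and the lists were chosen with earlier results of these data known. Simulated counts were used to check the code, and no error rate of the 2-fold calls was taken from them. Alternatives were counting by position, capping counts at 3, midpoints, single strands, windows of 100 and 500 bp, input minimums of 1 and 20, a pseudocount of 5, a control region of 1000 bp, chromosomes 1 to 19 or windows of mitochondrial length as the nuclear reference, and leaving out the map's ends. Leaving out the minus-strand clusters, the 5 richest stretches or the empty windows of the rest was added after seeing the data. No mitochondrial sequence of mm9 was used here.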

Additional observations from a re-analysis of the deposited data

How the results depend on the processing

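Of 132 alternative values, 84 stayed within counting error or within 1.5 times the count, and 48 moved. No value whose interval excluded 1 came to lie on the other side of it. The control/rest ratio of 5hmC per input, whose intervals contained 1, crossed it in ESC with the ends left out and on the minus strand (0.982), and in NPC on the plus strand (1.045), by midpoint (1.01) and without the minus-strand clusters (1.01). The NPC control/rest input density, 1.002, fell below 1 with the ends left out (0.960), on the plus strand (0.878), with a control region of 1000 bp (0.986), by midpoint (0.871) and without the empty windows of the rest. Counted by positions, the NPC/ESC ratio of mitochondrial input shares was 0.455, and 2 nuclear windows of 1 Mb reached the mitochondrial NPC/ESC ratio. With nuclear windows of mitochondrial length 8856 did. On the plus strand alone the mitochondrial level was 0.169 of the nuclear one in ESC and 0.982 in NPC, the ratio of input shares 0.384 and the ESC control/rest input density 0.651. On the minus strand these were 0.137, 0.788, 0.461 and 0.968. Leaving out the map's ends gave the ESC control/rest ratio of 5hmC per input as 0.784. Reads placed by midpoint left 23 windows with a ratio 2-fold below the mitochondrial one. Counts of windows above and below were 16 and 40 in ESC, 12 and 34 in NPC and 15 and 18 for the ratio at 100 bp. At 500 bp they were 4 and 8, 4 and 8, and 0 and 1, with fewer windows tested and more reads in each. A minimum of 20 input reads left 15 above in ESC, 1 above and 20 below in NPC, and 6 and 10 for the ratio. With at least 1 input read 38 were above in NPC and 49 for the ratio. With a pseudocount of 5 the counts were 43 and 1 in ESC, 39 and 0 in NPC, and 11 and 3 for the ratio, because it pulls windows with few reads towards 1, above the mean. Among the alternatives chosen after seeing the data, leaving empty windows out of the rest alone gave control/rest input densities of 0.557 in ESC and 0.687 in NPC. Without the minus-strand clusters the level against the nuclear one was 0.136 in ESC and 0.763 in NPC, and the plus/minus ratio 1.61 and 1.69. Without the 5 richest stretches the level was 0.0953 in ESC and 0.556 in NPC, the control/rest ratio 1.95 and 1.43, and the plus/minus ratio 1.33 and 1.16, the last with an interval that contained 1. The NPC/ESC ratio of the mitochondrial level lay between 1.02 and 1.09 under the alternatives run for it. No paired analysis was possible because each group was 1 library, and for the same reason no replicate could be left out. Depth limits single windows: with medians of 3 and 2 5hmC reads, none of the 151 windows of 50 bp tested could be told from the mitochondrial NPC/ESC ratio. Below the input minimum, 13201 to 13250 had an interval that excluded it (19 for 8 in ESC and 7 for 14 in NPC, ratio 0.211, 0.0514 to 0.834).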

Other observations

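Single windows at the extremes, among those that passed the input minimum, rested on few reads. The highest NPC/ESC ratios belonged to 2701 to 2750, with 0 5hmC reads for 27 input reads in ESC and 3 for 11 in NPC, and to 4 windows with 0 5hmC reads in ESC and 1 in NPC (201 to 250, 701 to 750, 751 to 800 and 1001 to 1050). The lowest belonged to 3351 to 3400, with 7 for 31 in ESC and 0 for 18 in NPC, to 3501 to 3550, 12301 to 12350 and 12851 to 12900, which also had no NPC 5hmC read, and to 11951 to 12000, with 10 for 15 in ESC and 1 for 11 in NPC. None of their intervals excluded the mitochondrial ratio. The first window, 1 to 50, had 1 5hmC read for 9 input reads in ESC and 0 for 14 in NPC, and the last, 16251 to 16300, had 0 for 5 and 0 for 2.

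The windows with the highest plus/minus ratio in ESC had no minus-strand 5hmC read. In 14701 to 14750 the plus strand had 8 5hmC reads for 16 input reads and the minus strand 0 for 33. In 14651 to 14700 the counts were 4 for 15 and 0 for 39. Both lie just before the plus-strand peak of the stretch from 14501 to 15000. In 13301 to 13350 the plus strand had 12 for 12 and the minus strand 0 for 10, with 11 for 5 and 0 for 1 in NPC. Window 3851 to 3900 had 10 for 17 and 0 for 15, and window 15601 to 15650, in the control region, 11 for 16 and 0 for 11. At the other end, 11851 to 11900 had 0 plus-strand 5hmC reads for 10 input reads and 13 for 14 on the minus strand in ESC, and 1 for 7 and 5 for 11 in NPC.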
